A study of Rattus norvegicus with 6 samples.

Results

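The loci of miR-124, miR-128, miR-137 and miR-153 were examined in small RNA libraries from clonal rat INS-1 lines, a β-cell model derived from an insulinoma. Members were the genes named for Mir9, Mir124, Mir128, Mir137 or Mir153, and 7 of the 32883 genes listed met that rule, out of 458 genes with an miRNA symbol. They were Mir128-1, Mir128-2, Mir124-1, Mir124-2, Mir124-3, Mir137 and Mir153. No gene was named Mir9, so the Mir9 loci were not analysed here. The name pattern also caught 5 other miRNAs with longer numbers (Mir93, Mir96, Mir98, Mir1247 and Mir1249), which were left out.

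The study asked how loss of the imprinted Prader-Willi syndrome (PWS) domain alters β-cells. All 6 lines descend from INS-1(832/13)::mCherry cells, which carry a human insulin transgene and a mouse Ins2 C-peptide-mCherry transgene, and all were grown at 7.5 mM glucose with 1 library per line. The 3 control lines (5-9, 2 and 16) lack the domain on the silent maternal copy alone, and the 3 PWS lines (3, 19-1 and 19-4) lack it on the maternal and the active paternal copy. Lines 2, 16 and all PWS lines were derived from line 5-9. Lines 19-1 and 19-4 are subclones of 1 edited line, and line 3 carries a larger paternal deletion than was designed. Each line is a clone, and the PWS group rests on fewer independent edits than lines.

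The libraries held 7373691 to 16480475 recovered reads, of which 88.5% to 90.0% were in miRNA genes, and the shallowest were PWS line 19-4 and control line 2. The SNORD116 snoRNA copies of the deleted domain had 4251 to 10516 reads in control lines and 2 to 3 in PWS lines. All 6 β-cell markers had reads, and their sum, carried by Mir375, Mir7a1 and Mir7a2, was 1.90e+06 to 3.33e+06 normalized reads in control and 2.05e+06 to 2.84e+06 in PWS lines. Their limma estimates were below 0 for 6 of 6, with a median log2 difference of -0.12. Among the 259 miRNA genes tested 69.5% had an estimate below 0, with a median of -0.14. Over all 4292 genes tested it was 49.7%, with a median of 0.0048. None of the markers was called, where 1.28% of all genes tested were called. Fragments of the insulin transcripts were few, with means of 194 and 125 normalized reads in control and PWS lines for Ins1 and of 21.1 and 7.45 for Ins2, which had 0 reads in line 19-4 (log2 difference -2.03, SE 0.74, limma adjusted p = 0.727). Markers of blood summed to 111 to 193 normalized reads and those of muscle to 0 to 2.61. Markers of endothelium and stroma summed to 32.7 to 63.0 in control and 64.1 to 74.2 in PWS lines. Mir143 had 13.1 to 39.4 in control and 35.7 to 48.8 in PWS lines, and Mir126a had 13.9 to 32.5 and 18.5 to 35.6. Each of these genes overlapped between groups, with limma adjusted p of 0.860 and 0.904, and Mir145 had no reads. Of all genes tested, 11.2% had ranges that did not overlap. The part of the blood, muscle, endothelial and stromal markers in the results was not tested. No gene was named Mir122, the liver miRNA. Values throughout are normalized reads, that is, reads divided by the library's size factor. In bulk libraries fewer cells that make an RNA and less of that RNA per cell cannot be told apart.

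An miRNA is cut from a hairpin precursor and guides Argonaute to transcripts that pair with its seed, bases 2 to 8 of the mature strand. miR-124, miR-128, miR-137 and miR-153 are best known from neurons, where miR-124 holds down transcripts of non-neuronal cells and miR-153 acts on proteins of vesicle release. β-cells share many neuronal genes, including the machinery of regulated exocytosis, and miR-124 is known there for its action on Foxa2 and Rab27a.

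The mature sequences are shown because they decide which copies can be told apart by their reads. The RefSeq sequence table (assembly GRCr8) matched 4 of the 7 loci, with 7 mature names of 21 to 23 bases, and the Mir124 loci are named only, with their hairpin lengths taken from the RefSeq gene table. The seed is in capitals.

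rno-miR-128-3p: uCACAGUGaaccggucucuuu

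rno-miR-128-1-5p: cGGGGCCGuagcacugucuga

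rno-miR-128-2-5p: gGGGGCCGaugcacuguaaga

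rno-miR-137-3p: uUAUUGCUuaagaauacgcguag

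rno-miR-137-5p: aCGGGUAUucuuggguggauaa

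rno-miR-153-3p: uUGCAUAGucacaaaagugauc

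rno-miR-153-5p: gUCAUUUUugugauguugcagcu

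Mir128-1 and Mir128-2 give the same 3p strand. Their 5p strands share the seed GGGGCCG and were identical at 16 of 21 positions. The 7 names held 6 distinct seeds, and none of the other mature miRNAs in the table of 693 had one of them.

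The precursors of the Mir128 pair are printed with both mature strands in capitals, because they are the copies whose reads split unevenly. Mir128-1 lies at chr13:42251884-42251965 on the plus strand and Mir128-2 at chr8:120963795-120963878 on the minus strand (GRCr8, which is not the Rnor_6.0 build named for the files).

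Mir128-1: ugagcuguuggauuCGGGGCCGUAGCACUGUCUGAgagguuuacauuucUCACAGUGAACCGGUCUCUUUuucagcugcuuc

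Mir128-2: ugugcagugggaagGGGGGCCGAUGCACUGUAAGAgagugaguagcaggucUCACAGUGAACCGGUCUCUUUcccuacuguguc

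In the same annotation Mir128-1 lies within the gene R3hdm1, Mir128-2 within Arpp21 and Mir153 within Ptprn2, a granule membrane protein. Mir124-1, Mir124-2 and Mir137 lie within long noncoding RNA genes, and no gene spans Mir124-3.

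All 7 loci had reads in all 6 libraries and passed the filter of a mean of 5 normalized reads. Together they made up 0.127% ± 0.00331 of the miRNA reads in controls, against 0.112% ± 0.0285 in the PWS group (SD, n = 3). The PWS libraries ranged from 0.0798% in line 19-4 to 0.133% in line 19-1, which spans the control values of 0.124% to 0.131%. The 4 families are thus minor miRNAs of these cells. Their loci ranked between 67 and 191 among the miRNA genes of a library, of which 298 to 314 had reads.

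Most of these reads came from Mir128. Its share of the 7-locus total was 85.3% ± 3.12 (SD over 6 libraries), against 5.54% ± 1.54 for Mir153, 5.22% ± 1.07 for Mir137 and 3.90% ± 1.31 for Mir124. Per 100 bases of RefSeq hairpin, the mean level over the 6 libraries was 6402 normalized reads for Mir128-1, 5149 for Mir128-2, 705 for Mir153 and 569 for Mir137. The 3 Mir124 loci had 141 to 177 normalized reads per 100 bases. On this scale Mir128-1 was above Mir128-2 in 6 of 6 libraries, although their ranges over libraries overlapped. The Mir128 loci stood apart from the rest, since the lowest value of Mir128-2 per 100 bases was 3070 and the highest of Mir153 was 966. Mir153 and Mir137 were neighbours whose ranges overlapped, with Mir153 higher in 5 of 6 libraries. Mir137 lay above the Mir124 loci, with a lowest value of 370 per 100 bases against a highest of 312 for Mir124-1, the highest of the 3 on this scale.

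**Figure D1:**
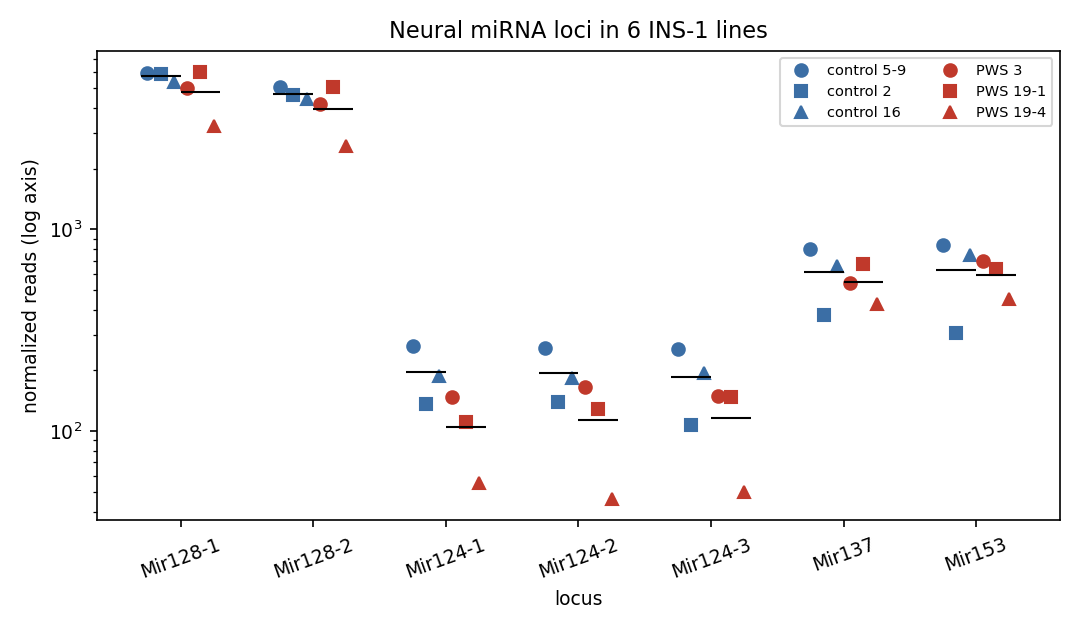
Normalized reads (log axis) of the 7 neural miRNA loci in the control lines (blue) and PWS lines (red), with a bar at each group mean (n = 3). The groups overlap at every locus, and line 19-4 is the lowest PWS line at each of the 7.

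Mir128-1 (ENSRNOG00000035534) had 5930, 5892 and 5369 normalized reads in control lines 5-9, 2 and 16. It had 5045, 6016 and 3246 in PWS lines 3, 19-1 and 19-4. The control lines were close together, and the PWS lines held both the highest and the lowest value of the 6. Controls averaged 5730 ± 314 and PWS lines 4769 ± 1406 (SD, n = 3), a log2 difference of -0.31 (SE 0.25, 95% interval -0.83 to 0.21; limma adjusted p = 0.886).

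Mir128-2 (ENSRNOG00000035607) followed the same order of lines. It had 5061, 4658 and 4410 normalized reads in control lines 5-9, 2 and 16, and 4173, 5070 and 2579 in PWS lines 3, 19-1 and 19-4. The log2 difference was -0.31 (SE 0.26, 95% interval -0.85 to 0.23; limma adjusted p = 0.887). For the sum of both copies it was -0.31 (SE 0.25, 95% interval -0.83 to 0.21; limma adjusted p = 0.886). Without line 19-4 the difference of the sum was -0.045, so the estimate rested largely on this 1 library.

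The Mir124 loci had the largest differences of the 7. Mir124-1 (ENSRNOG00000035471) had 265, 136 and 187 normalized reads in control lines 5-9, 2 and 16, and 148, 111 and 55.4 in PWS lines 3, 19-1 and 19-4. Line 19-4 was lowest and line 5-9 highest, and PWS line 3 lay above control line 2, so the groups overlapped. Controls averaged 196 ± 64.9 and PWS lines 105 ± 46.9 (SD, n = 3).

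Mir124-2 (ENSRNOG00000035499) had 258, 140 and 183 normalized reads in control lines 5-9, 2 and 16, and 165, 128.2 and 46.1 in PWS lines 3, 19-1 and 19-4. Mir124-3 (ENSRNOG00000035593) had 254, 107 and 195 in the same control lines, and 150, 147 and 50.1 in the same PWS lines. The order of the extremes was that of Mir124-1, with line 5-9 highest and line 19-4 lowest, and both loci overlapped between groups.

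The log2 difference was -0.95 for Mir124-1 (SE 0.37, 95% interval -1.73 to -0.17), with an unadjusted limma p of 0.0198 and an adjusted p of 0.815. For Mir124-2 it was -0.91 (SE 0.41, 95% interval -1.77 to -0.047; limma adjusted p = 0.831), and for Mir124-3 it was -0.75 (SE 0.42, 95% interval -1.63 to 0.13; limma adjusted p = 0.860). Intervals of the first pair lie below 0 before the adjustment for the number of genes tested, and none of the 3 loci passed after it.

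Because the 3 copies share their known mature strand, their sum is the safer measure. The Mir124 total was 777, 383 and 566 normalized reads in control lines 5-9, 2 and 16, and 464, 387 and 152 in PWS lines 3, 19-1 and 19-4. Both other PWS lines lay above control line 2, and line 19-4 lay far below all others. As a share of miRNA reads, the total was 0.00741% in line 5-9 and 0.00176% in line 19-4 (exact 95% interval of the latter 0.00146% to 0.00212%, for counting error only).

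The Mir124 total averaged 575 ± 197 in controls, against 334 ± 163 in the PWS group (SD, n = 3). The log2 difference was -0.87 (SE 0.38, 95% interval -1.68 to -0.073; limma adjusted p = 0.833), a fold of 0.546 with an interval of 0.313 to 0.951. Without line 19-4 it was -0.38, and with the subclones 19-1 and 19-4 averaged to 1 sample it was -0.64. When every gene with a read was tested, with no filter on low values, the same difference of -0.87 was called at a limma adjusted p of 0.0918, where 0.386% of the 17119 genes tested were called.

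Mir137 (ENSRNOG00000035491) had 799, 378 and 661 normalized reads in control lines 5-9, 2 and 16, and 542, 672 and 428 in PWS lines 3, 19-1 and 19-4. The lowest and the highest library were both controls, lines 2 and 5-9, and the PWS values lay between them. Controls averaged 613 ± 215 and PWS lines 548 ± 122 (SD, n = 3). The log2 difference was -0.12 (SE 0.30, 95% interval -0.76 to 0.52; limma adjusted p = 0.961), and it turned to 0.11 without line 5-9 and to 0.047 without line 19-4.

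Mir153 (ENSRNOG00000035515) had 840, 306 and 749 normalized reads in control lines 5-9, 2 and 16, and 694, 639 and 454 in PWS lines 3, 19-1 and 19-4. As for Mir137, the control lines spanned the PWS lines. The log2 difference was 0.021 (SE 0.34, 95% interval -0.71 to 0.75; limma adjusted p = 0.992), and it turned to -0.44 without control line 2, to -0.10 without PWS line 3 and to -0.042 without PWS line 19-1. Its sign was also negative by edgeR and DESeq2 and with upper-quartile scaling, so no direction is given for Mir153.

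**Figure D2:**
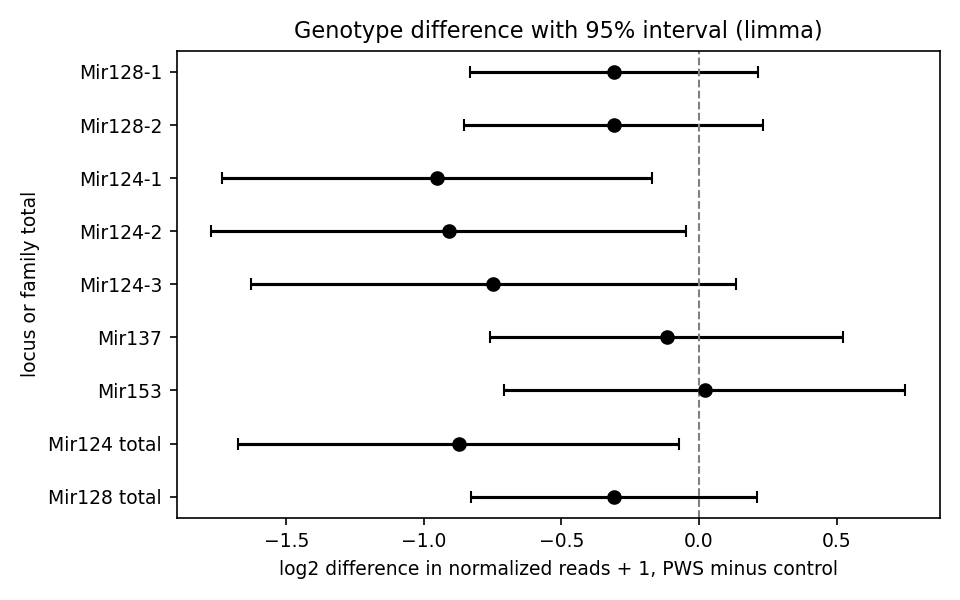
Log2 difference between PWS and control lines (horizontal axis, PWS minus control, normalized reads + 1) for each locus and for the family totals, with 95% intervals from limma before adjustment. The intervals of Mir124-1, Mir124-2 and the Mir124 total lie below 0, and the Mir153 estimate lies at 0.021.

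None of the 7 loci was called at an adjusted p under 0.1 by limma, nor by edgeR, DESeq2 or voom, where by limma 1.28% of the 4292 genes tested were called. All 55 genes called by limma were lower in PWS lines, and this share counts any genes of the deleted domain. At an unadjusted p under 0.05, limma found 2 of the 7, voom 2, edgeR 1 and DESeq2 1, where over all 4292 genes they found 256, 220, 224 and 141. Among the 259 miRNA genes tested, limma found 40. The ranges of the 2 groups overlapped at all 7 loci, where 11.2% of the genes tested had ranges that did not overlap. The point estimate was below 0 for 6 of the 7, with a median of -0.31, against 49.7% of all genes tested and a median of 0.0048. Estimates below 0 were common among miRNAs in general. They were found for 127 of the 170 other miRNA genes whose mean reached 100 normalized reads (74.7%), with a median of -0.14. The intervals show the limit of 3 lines against 3, since that of Mir153 allows a fold of 0.612 to 1.68 and that of Mir124-1 a fold of 0.301 to 0.887.

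The reads of a family were next divided among its copies. Mir128-1 held 54.8% of the 62395 Mir128 reads (exact 95% interval 54.4% to 55.2%). Its share per library was 54.0% to 55.8%, and an even split of 50% lay outside the interval in 6 of 6 libraries. The split thus differed from even by a small amount that was alike in control and PWS lines, while the totals moved 1.90-fold between the highest and lowest library. The Mir124 copies split evenly within counting error. Mir124-1, Mir124-2 and Mir124-3 held 32.9%, 33.8% and 33.3% of 3079 reads, and an even share lay inside every interval in every library. Copies with the same mature strand cannot be told apart by reads of that strand, so single-copy values are uncertain and the totals are the values to compare.

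**Figure D3:**
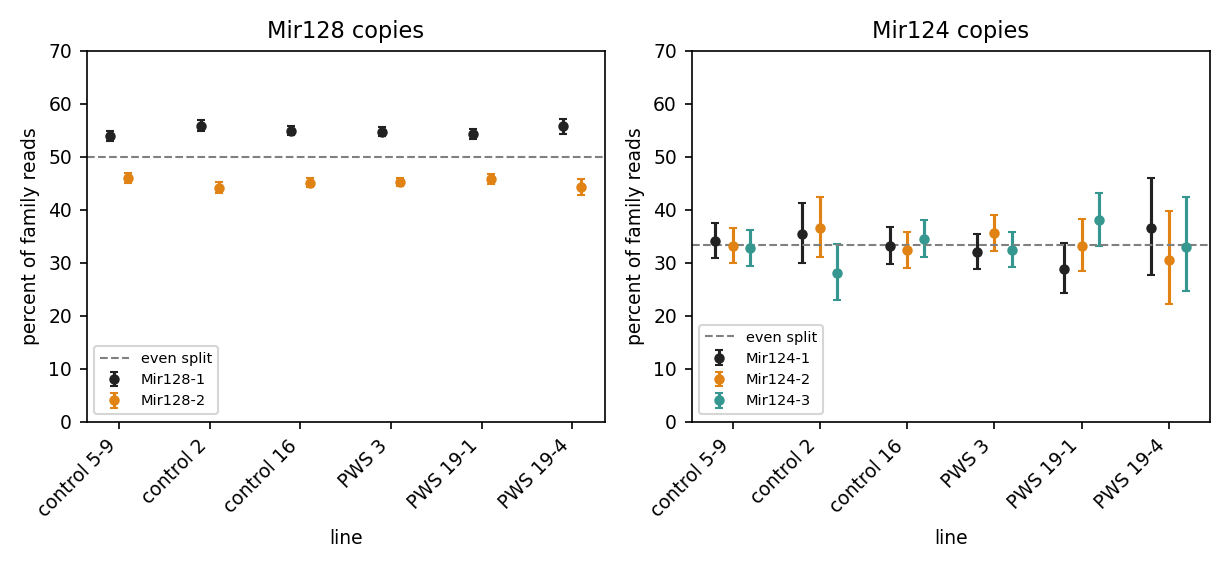
Percent of the family's reads at each Mir128 copy (left) and each Mir124 copy (right) in the 6 lines, with exact 95% binomial intervals and a dashed line at an even split. The Mir128-1 share is 54.0% to 55.8% in each library, and the Mir124 intervals all include the even share.

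Subclones 19-1 and 19-4 share both edits, so their difference is 1 instance of the spread between lines of a genotype, and it includes the shallowest library. All 7 loci were higher in line 19-1. So were 76.3% of the 177 miRNA genes whose mean reached 100 normalized reads, and 49.4% of all genes tested. The ratio of 19-1 to 19-4 was 1.90 for the Mir128 total (95% counting interval 1.84 to 1.97) and 2.55 for the Mir124 total (2.06 to 3.17). It was 1.57 for Mir137 (1.37 to 1.80) and 1.41 for Mir153 (1.23 to 1.61). The median log2 difference between the subclones was 0.98 over the 7 loci, 0.37 over the 177 miRNA genes whose mean reached 100 normalized reads and 0 over all genes tested. At each of the 7 loci these 2 lines differed by more than the fitted difference between the genotypes. The 3 control lines, also of 1 genotype, differed 1.12-fold from lowest to highest for the Mir128 total, 2.03-fold for the Mir124 total, 2.11-fold for Mir137 and 2.75-fold for Mir153. The median SD within groups was 0.61 on the log2 scale for the 7 loci, 0.29 for those 177 miRNA genes and 0.52 for all genes tested.

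**Figure D4:**
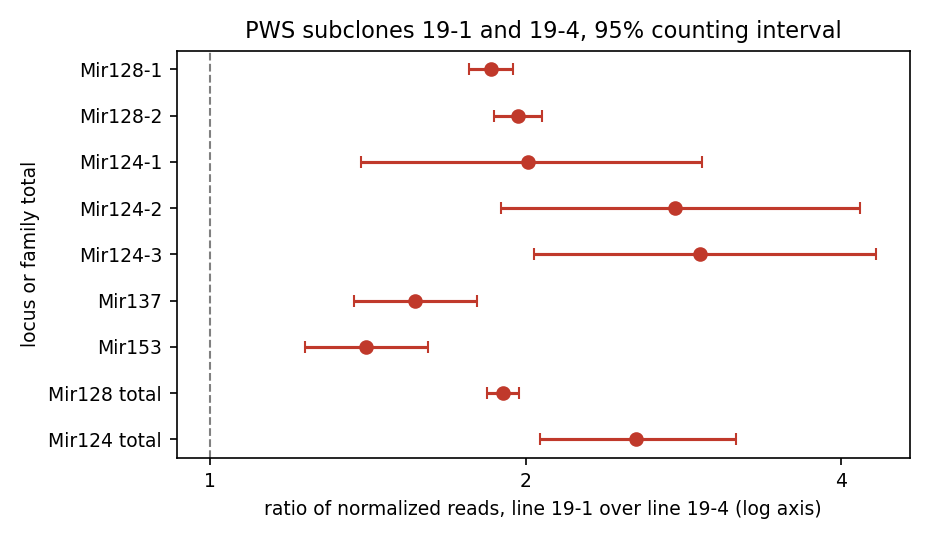
Ratio of normalized reads in PWS line 19-1 to those in line 19-4 (log axis) for each locus and family total, with 95% counting intervals. All intervals lie above 1, and the ratios run from 1.41 for Mir153 to 2.94 for Mir124-3.

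Lines 19-4 and 2 were also the shallowest libraries of their groups. Line 19-4 was the lowest PWS line at 7 of 7 loci and at 122 of the 177 miRNA genes of that level (68.9%). Over all genes tested it was the lowest PWS line at 36.4%. Line 2 was the lowest control at 5 of 7 loci, at 46.9% of those 177 and at 38.1% of all genes tested. The 177 include the 7 loci. The part of depth in these values was not tested. Without both libraries the log2 difference was -0.65 for the Mir124 total, -0.036 for the Mir128 total, -0.27 for Mir137 and -0.25 for Mir153. None of these was called, where limma called 51 of the 4302 genes tested in that fit.

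The families differed in how closely they moved together over the lines. As a description over 6 libraries, which share a depth and a size factor for all genes, Pearson's r between log2 levels was 0.93 for Mir137 with Mir153 and 0.85 for Mir128 with Mir124. It was 0.70 for Mir124 with Mir137, 0.60 for Mir124 with Mir153, 0.50 for Mir128 with Mir137 and 0.27 for Mir128 with Mir153. Line 2 lay above 3 of the other 5 lines for the Mir128 total and was lowest of the 6 for Mir137 and Mir153.

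Outside the families, the miRNA genes whose pattern was most like each leading locus were named by the same r among those whose mean reached 100 normalized reads. Mir137 was nearest to Mir7a2 (r = 0.98), Mir7a1 (r = 0.98) and Mir322 (r = 0.93). Mir153 was nearest to Mir7a2 (r = 0.97), Mir7a1 (r = 0.97) and Mir340-2 (r = 0.96). Mir7a1 and Mir7a2, at means of 944223 and 946577 normalized reads, are loci of miR-7, an miRNA abundant in endocrine islet cells.

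The closeness to miR-7 can be read from the levels. Mir137 stood at 0.0317%, 0.0304% and 0.0297% of the summed Mir7a1 and Mir7a2 level in control lines 5-9, 2 and 16, and at 0.0293%, 0.0335% and 0.0288% in PWS lines 3, 19-1 and 19-4. The highest of these ratios was 1.16 times the lowest, whereas Mir137 alone varied 2.11-fold and the Mir7a pair 2.03-fold. For Mir153 the ratio to the Mir7a pair varied 1.52-fold, against 2.75-fold for Mir153 alone. Since the Mir7a loci were picked for their likeness to Mir137 and Mir153, from 176 candidates over 6 libraries, these ratios describe the same likeness and are no further evidence of it.

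Mir124-2, taken for its family because its mean in normalized reads was nominally the highest of the 3 copies (153.4 against 150.6 and 150.7, with an even split within counting error), was nearest to Mir384 (r = 0.99), Mir23a (r = 0.99) and Mir96 (r = 0.98). Mir384 moved the same way over a smaller range. It varied 2.28-fold between lines, against 5.13-fold for the Mir124 total. Mir128-1 was nearest to Mir342, Mir107 and Mir30d (r = 0.99, 0.99 and 0.98). The Mir128 total stood at 16.5% to 21.5% of the Mir342 level, with the lowest ratio in line 19-4.

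**Figure D5:**
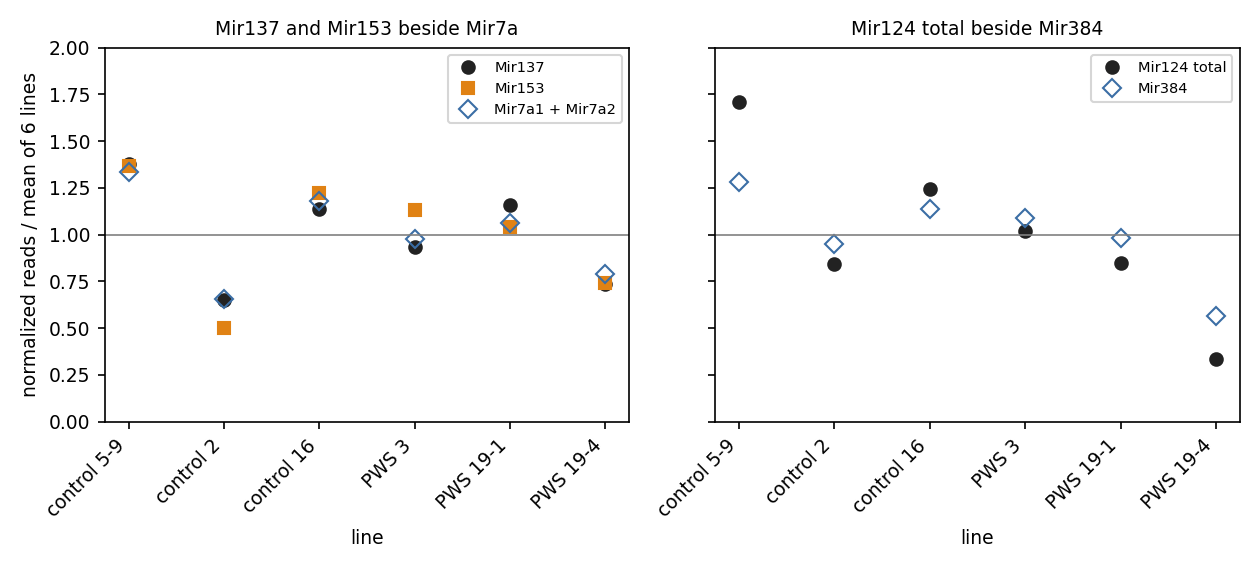
Normalized reads in each line divided by the mean of the 6 lines, for Mir137 and Mir153 beside the summed Mir7a1 and Mir7a2 (left) and for the Mir124 total beside Mir384 (right). Mir137 lies close to Mir7a in every line, and the Mir124 total moves 5.13-fold while Mir384 moves 2.28-fold.

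A list of 20 other miRNAs known from neurons gave 16 genes with a row, and all were tested. None was called by limma, edgeR, DESeq2 or voom, 7 of 16 had an unadjusted p under 0.05 by each of them, 14 of 16 had an estimate below 0, and their median log2 difference was -0.50 by limma. Among all 259 miRNA genes tested, limma called 8. Of those 259, 40 had an unadjusted p under 0.05 and 180 (69.5%) an estimate below 0, with a median of -0.14. The most abundant were Mir129-2, with 66344 normalized reads in control and 56793 in PWS lines, and Mir129-1, with 63896 and 54533. Mir212 had the lowest limma adjusted p of the list, with means of 1942 and 960 normalized reads. Its adjusted p was 0.238 by limma, 0.145 by voom, 0.124 by edgeR and 0.1002 by DESeq2, the last of them next to the cutoff of 0.1. Mir132, which is made from the same transcript as Mir212, had 30476 and 19517. Mir384, the partner of Mir124-2 above, had 50777 and 39686.

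Fragments of the host transcripts were scarce. R3hdm1, host of Mir128-1, had 27 reads in all, at 5.23 to 8.86 normalized reads in controls and 0 to 3.96 in the PWS group, and it was below the filter, so no test was made. Arpp21, host of Mir128-2, had 0 reads. Ptprn2, host of Mir153, had 86 reads, with means of 8.02 ± 7.09 and 17.9 ± 7.24 in control and PWS lines (SD, n = 3; log2 difference 1.28, SE 0.50, limma adjusted p = 0.815). Its paralog Ptprn, which holds a second Mir153 locus in some other mammals, had means of 7.83 and 6.28. The levels of Mir153 and of its host fragments thus had no shared direction that passed a test.

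Libraries of small RNAs hold only fragments of messenger RNAs, and these were too few to follow the targets closely. Of 42 genes of granule exocytosis, 41 had a row, 39 had reads and 12 were tested. None was called or had an unadjusted p under 0.05 by limma, edgeR, DESeq2 or voom, 6 of the 12 had an estimate below 0, and the median log2 difference was -0.11 by limma. Over all 4292 genes tested, limma called 1.28%, 256 had an unadjusted p under 0.05, 49.7% had an estimate below 0 and the median was 0.0048, so 0 calls among so few genes is near what that share gives. The most abundant of them were Napa, an adaptor that helps to take SNARE complexes apart, with means of 27.2 normalized reads in control and 33.2 in PWS lines, and Bsn, a scaffold of the active zone, with 24.8 and 25.4. Of the SNARE proteins that miR-153 and others act on, Vamp2 had means of 6.38 and 5.16 and Snap25 had 6 reads in all.

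Of 20 transcripts known as targets of these miRNAs, 19 had a row, 17 had reads and 8 were tested. None was called or had an unadjusted p under 0.05 by limma, edgeR, DESeq2 or voom, beside the same shares over all genes. The 8 include Ctdsp1, whose value is not a measure of that transcript. Of the other 7, 6 had a limma estimate below 0, with a median log2 difference of -0.32 (7 of 8 and -0.25 with Ctdsp1), against 49.7% and 0.0048 over all genes tested. Foxa2, a transcription factor of the β-cell and a target of miR-124, had means of 16.98 and 16.02 normalized reads. Neurod1, another β-cell transcription factor, had 16.3 and 10.3. Ptbp1, a splicing repressor and target of miR-124, had 14.6 and 15.7. Rab27a had 5 reads in all, and Rest and Cdk6 had 0. Ctdsp1 stood out at a mean of 26424, but 9 of its 172967 reads remained when reads in overlapping genes were left out, and Mir26b lost all of its 172958. The 7 neural miRNA loci kept all their reads under that option, which concerns overlapping genes and does not remove reads that fit several copies of a family.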

How the data were processed

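The authors made 1 small RNA library per line with a kit for microRNAs that tags each molecule, and kept RNAs under 200 bases. The submitters' processing notes name UMI-tools 1.0.0, cutadapt 1.18, Bowtie2 2.3.4.2, HTSeq 0.11.2, featureCounts, DESeq2 and the build Rnor_6.0. The deposited values are a signal: read counts per gene that the authors divided by a DESeq2 size factor. Whole reads were recovered from them (100% of values above 0 within a tolerance of 0.001 of a whole number). The 2 tables differ in reads placed where annotated genes overlap, which the main table adds to each gene and the other leaves out. The study's methods chose the first way of counting for the sake of multicopy snoRNA and miRNA genes. The Mir128 and Mir124 copies kept all their reads in both tables, so for them the choice removed no read that fits several copies. The deposited columns of mean, fold change and p-value were not used.

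Genes whose mean reached 5 normalized reads (4292) were tested with limma-trend (limma 3.58.1, R 4.3.3) on log2(normalized reads + 1), two-sided, with genotype as the only term and Benjamini-Hochberg adjustment over all of them. As in the study, the cutoff for a call was an adjusted p of 0.1. Differences on this scale understate the change of genes with few reads. Family totals were tested in the same model with the copies replaced by their sum. Counting intervals are at 95% (exact Clopper-Pearson for shares) and cover counting error only. Each line is 1 clone with 1 library, so p-values measure the spread between these lines.

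The rule for named genes covered all 7 loci, the family totals, the 3 miRNA genes most like the leading locus of each family, and the most abundant members of each list where none was called. Other list members were named after their values were seen. Members and lists were chosen with earlier results of these data known. The test was checked on simulated data. The alternatives were other pseudocounts, filters and scalings, edgeR 4.0.16, DESeq2 1.42.0, limma-voom, the other table, a replicate block, averaged subclones, a cutoff of 0.05, and leaving out lines. Sequences and spanning genes are from RefSeq GRCr8, matched by symbol, with sequences for 4 of 7 loci.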

Additional observations from a re-analysis of the deposited data

How the results depend on the processing

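No neural miRNA locus was called under any of the 21 alternatives, and the number of genes called was 41 to 66 (44 to 58 when 1 line was left out). The Mir124 total was called in 1 of them, with no filter on low values (log2 difference -0.87, limma adjusted p 0.0918). The estimate for Mir153 turned below 0 with upper-quartile scaling (-0.0094), edgeR (-0.086), DESeq2 (-0.086) and without the shallowest library of each group (-0.25), an alternative chosen after seeing the data. The causes were not tested. With 1 line left out, the log2 difference ranged from -0.44 to 0.29 for Mir153, -0.43 to 0.11 for Mir137, -1.26 to -0.55 for Mir124-1, -1.27 to -0.36 for Mir124-2, -1.10 to -0.23 for Mir124-3, -1.19 to -0.38 for the Mir124 total, -0.50 to -0.055 for Mir128-1, -0.52 to -0.032 for Mir128-2 and -0.51 to -0.045 for the Mir128 total. The estimates for the Mir124 and Mir128 loci and totals stayed below 0 in all 21. Under a replicate block 56 genes and none of the loci were called. Same-numbered lines had correlations of 0.41, 0.22 and -0.057 over 1087 genes, after the group means were removed. Correlations of differently numbered lines were not computed, so these values do not show whether the numbers pair the lines. With 42, 35 and 38 reads, the Mir124 copies of line 19-4 had the lowest counts of the 7 loci.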

Other observations

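Mir3597-1, Mir3597-2 and Mir3597-3, which RefSeq places opposite the Mir9 hairpins, were looked at after their values were seen. They had 2, 3 and 6 reads over all libraries, with at most 3 in a library. These rows do not measure miR-9 itself.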
